A study of Mus musculus with 15 samples.

Results

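The cytosolic ribosomal protein genes were followed across libraries of leukemic mouse spleen cells. They were the protein-coding genes of both deposited tables whose symbol reads Rpl, Rps or Rplp followed by a number, with or without a final a or x. The rule used names only and found 74 of the 15869 genes listed in both tables, 45 of the large ribosomal subunit, of which 3 form its stalk, and 29 of the small subunit. The tables hold what passed the authors' filter on low values, so a gene of such a name that it removed is not among the 74. Eμ-TCL1 mice develop a B-cell leukemia that models chronic lymphocytic leukemia, because an enhancer active in B-cells (Eμ) drives the oncogene TCL1. Eμ-TCL1;p53R172H/+ mice carry in addition a mutant allele of Trp53, heterozygous in the germline, and both lines were on a C57BL/6 background. The paper examined loss of the remaining wild-type allele in leukemias of such mice. Whether the cells sequenced here had kept it is not given in the sources used here. Cells were freed mechanically from the tumor-burdened spleens of untreated mice and cultured for 24 h with vehicle (DMSO) or with 5 μM ibrutinib, an inhibitor of the B-cell receptor kinase BTK, before RNA sequencing of the bulk culture. The DMSO table held 3 Eμ-TCL1 libraries (replicates 2, 3 and 4) and 5 Eμ-TCL1;p53R172H/+ libraries (replicates 1 to 5), and the ibrutinib table held 3 (replicates 1, 3 and 4) and 4 (replicates 1, 3, 4 and 5). Ages were not given in the sources used here, nor whether each library came from its own mouse, so p-values measure the spread between these libraries.

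Ribosomal proteins are made in the cytoplasm, imported into the nucleolus and assembled there with ribosomal RNA into a small subunit, which reads the mRNA, and a large subunit, which joins amino acids. Growing cells spend much of their transcription on these genes, Myc raises their transcription, and mTOR signaling controls their translation through a terminal oligopyrimidine (TOP) tract, a C at the very start of the mRNA followed by a run of C and T (U in the RNA). Free Rpl5 and Rpl11 can bind Mdm2, the ligase that keeps p53 low, which ties ribosome assembly to p53.

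The first 25 bases of 7 members, read from the GENCODE M21 transcripts of build GRCm38, show how the annotated starts differ. Capitals mark the pyrimidine run that begins with C at base 1, in the transcript where it was longest. Rps24 and Rpl32 are shown for their long runs, Rps3 and Rpl4 for their high levels, Rps27, Rps16 and Rplp0 because results turn on them.
Rps24: CTCTTTTCCTCCTCTCCagctccgg
Rpl32: CTTCCTTCTTCCTCggcgctgccta
Rps3: CCTTTCCTTTCagcggcgcgcggct
Rpl4: CTTTTCCTgtgggagcagccgggta
Rps27: CCTTTCCggcggtgacgacctccct
Rplp0: ggaccgcctggttctcctataaaag
Rps16: ggcttcgacgtcagccgtaaagccc

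Rps24 and Rpl32 begin with long runs, Rps3 and Rpl4 with shorter ones, and the annotated starts of Rplp0 and Rps16 with none. A run of at least 5 pyrimidines from a C at base 1 began a protein-coding transcript of 22 of the 74 members (29.7%), against 739 of 12973 other protein-coding genes of the DMSO table (5.70%). These are annotated starts, so a member with no run in capitals may still start with one in these cells. On GRCm38, Rps24 lies at chr14:24487125-24496959, Rpl32 at chr6:115805505-115808747, Rps3 at chr7:99477896-99483738, Rpl4 at chr9:64173375-64178666, Rps27 at chr3:90212522-90213651, Rplp0 at chr5:115559467-115563727 and Rps16 at chr7:28350652-28353155, and Rpl32, Rps3 and Rps27 are on the minus strand.

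The deposited values are CPM, read counts per 1000000 of the effective size of a library, and carry 1 decimal. The factors were set within each table. Column sums ran from 756625 to 1359649.7, and the read depth was not given in the sources used here. One Eμ-TCL1 library stood apart in each table, replicate 2 in DMSO and replicate 1 in ibrutinib. The summed CPM of 8 myeloid markers was 32202 and 23716 there against 27 to 1327 in the other 13 libraries, that of 6 erythroid markers 17255 and 14977 against 9 to 256.2, and all 14 markers were at their highest of the table in these libraries. The summed CPM of 8 B-cell markers was low in the same libraries (519 and 420.3) and in Eμ-TCL1;p53R172H/+ replicates 1 and 2 in DMSO (268 and 259) and replicate 1 in ibrutinib (65.0), against 529 to 5995 elsewhere. The last 3 libraries held the most of 8 T-cell markers (2064, 2459 and 1357 against 105 to 891). In ibrutinib all Eμ-TCL1;p53R172H/+ libraries lay above all Eμ-TCL1 libraries in T-cell markers (464.8 to 1356.8 against 104.5 to 353.0). Their B-cell markers (65.0 to 1465.4) lay below those of Eμ-TCL1 replicates 3 and 4 (3379.9 and 2633.8). No B-cell or T-cell marker was at 0 in any library, while Elane was at 0 in 4 DMSO libraries and Cd14 in 3 libraries. In bulk libraries, fewer cells of a type and less RNA per cell cannot be told apart, and the part of the cell mixture in the results was not tested. Changes between genotypes are given with and without the myeloid-rich pair of libraries. Leaving out that pair does not even out the B-cell and T-cell markers between the genotypes in ibrutinib.

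The members' summed share of each library was lowest in the myeloid-rich library of each table, and the genotypes overlapped. In DMSO it was 0.494, 1.62 and 1.67% of the column sum in Eμ-TCL1 replicates 2, 3 and 4, and 1.52, 1.04, 1.63, 1.33 and 1.80% in Eμ-TCL1;p53R172H/+ replicates 1 to 5. In ibrutinib it was 0.552, 0.619 and 1.46% in Eμ-TCL1 replicates 1, 3 and 4, and 1.48, 0.995, 0.695 and 0.842% in Eμ-TCL1;p53R172H/+ replicates 1, 3, 4 and 5. The lowest share in each table belonged to the myeloid-rich Eμ-TCL1 library. The remaining Eμ-TCL1 values lay within the range of the other genotype, except replicate 3 in ibrutinib, which was below it. Part of the column sum went to mitochondrially encoded transcripts, 4.42 to 25.7% in DMSO and 6.29 to 43.7% in ibrutinib. With those genes left out of the sum, the share was 0.664, 1.74 and 1.76% against 1.12 to 1.99% in DMSO, and 0.718, 0.986 and 1.60% against 1.20 to 1.58% in ibrutinib.

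The geometric mean of the 74 members gives each the same weight, where the share is set by the most abundant. It was 26.1, 64.6 and 56.8 CPM in Eμ-TCL1 replicates 2, 3 and 4 and 60.3, 50.01, 70.2, 54.0 and 81.5 CPM in Eμ-TCL1;p53R172H/+ replicates 1 to 5 in DMSO. In ibrutinib it was 23.7, 28.9 and 42.0 CPM in Eμ-TCL1 replicates 1, 3 and 4 and 43.1, 32.1, 33.3 and 45.3 CPM in Eμ-TCL1;p53R172H/+ replicates 1, 3, 4 and 5. Within each table the groups overlapped, with 1 Eμ-TCL1 library far below the rest in DMSO and 2 of 3 below the other genotype in ibrutinib. In Eμ-TCL1 replicate 2 in DMSO, 68 of the 74 members (91.9%) were at their lowest of the 8 libraries, against 33.8% of the 10774 genes with a mean of at least 5 CPM. In Eμ-TCL1 replicate 1 in ibrutinib 44 members (59.5%) were at their lowest of the 7 libraries, against 27.6% of 10281 genes, and 20 more were lowest in Eμ-TCL1 replicate 3.

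**Figure D1:**
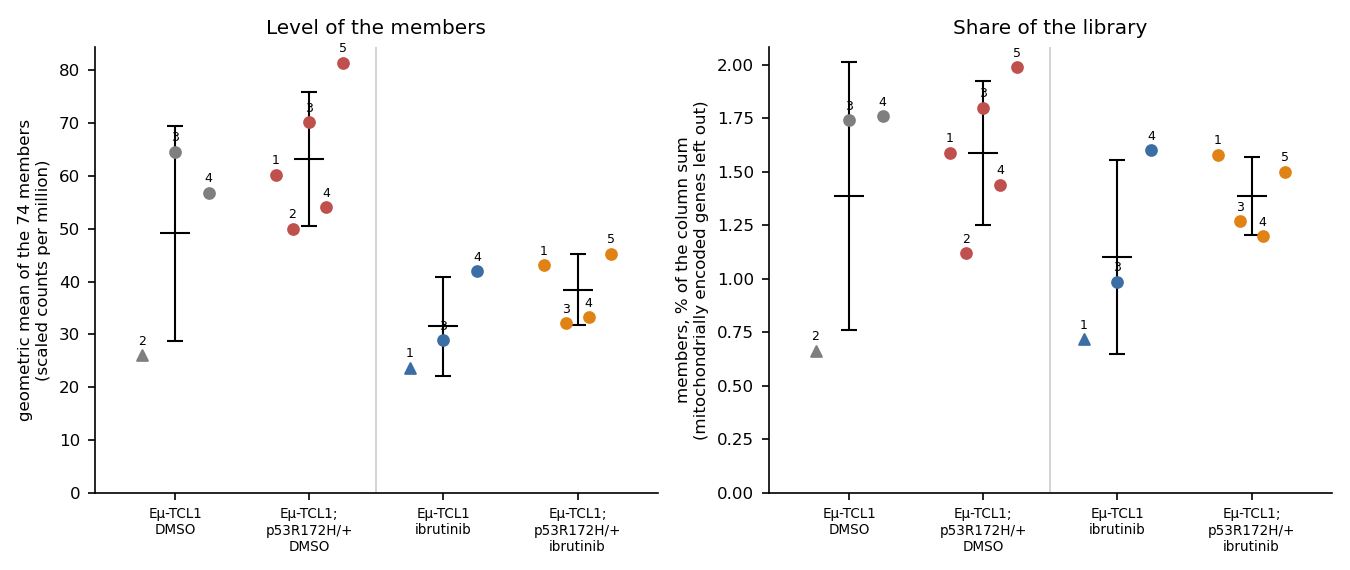
The plot of the members' level by library gives the geometric mean in CPM and the share of the column sum in percent (mitochondrially encoded genes left out) for the 15 libraries in 4 groups, with triangles for the myeloid-rich Eμ-TCL1 libraries and bars for the mean ± SD. The triangles sit at 26.1 CPM in DMSO and 23.7 CPM in ibrutinib, the lowest of their tables.

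Per kilobase (kb) of coding length, the members' levels ran over a 529-fold range in DMSO and a 765-fold range in ibrutinib, taking each gene's median over the libraries of a table. The highest was Rpl41, the shortest ribosomal protein, at 3899 CPM per kb in DMSO and 2615 in ibrutinib. Rplp1 of the acidic stalk followed with 1763 and 1314 CPM per kb. Rpl32 stood at 1720.0 and 937 CPM per kb, close to Rps3, which lines the mRNA entry channel (1715 in DMSO), and Rpl8 near the catalytic centre (1644). At the other end were Rps13 with 12.4 and 6.62, Rps16 with 11.2 and 5.71 and Rpl23a, at the mouth of the exit tunnel, with 7.37 and 3.42 CPM per kb. The order hardly changed between the tables (Spearman's rho 0.993 over the 74 members, whose transcripts and counting are the same in both). Neighbours in this order were close: in 0 of 73 neighbouring pairs in DMSO and 1 of 73 in ibrutinib did the ranges over libraries lie apart. The length used was that of the longest annotated coding sequence (138 bases for Rpl41). It leaves out untranslated bases, while reads were counted per gene. Levels of members with short coding sequences may therefore be raised, and the range and order are approximate.

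Ribosomes hold most of these proteins in equal number. Their mRNA levels here were nevertheless lower among members with a larger percentage of transcript sequence found in other genes. Each 50-base window of a member's protein-coding transcripts was looked up in the transcripts of every other annotated gene. Windows of untranslated bases were counted too. Long or numerous transcripts can therefore lower the percentage of shared windows even where much of the coding sequence is shared. Rps15a, with a coding length of 390 bases, had 6023 windows (5.43% shared), and Rpl21, with 480 bases, had 2398 (19.7% shared). The part of transcript length in these percentages was not tested. For most members the matching genes were mainly annotated as pseudogenes, but for some they were not, as for Rps16 (6 of 89 genes). The 14 members with at most 20% of windows shared had a median of 797 CPM per kb in DMSO (83.3 to 1715) and 555 in ibrutinib. The 25 members with over 20 and up to 40% shared had medians of 94.1 and 49.3, the 14 with over 40 and up to 60% had 56.0 and 30.8, and the 21 above 60% had 60.2 and 45.9 CPM per kb. Over the 74 members rho between the shared percentage and the level was -0.49 in DMSO and -0.503 in ibrutinib, a description across genes that share the same libraries. The pattern had exceptions, since Rplp1 shared 60% of its windows and was among the highest. Of the windows of Rps3 2.82% recurred and of those of Rpl4 16.4%, against 85.7% for Rpl23a, whose windows recurred in 29 genes, 28 of them pseudogenes. How reads that match several places were handled is not given in the sources used here, so levels of members with shared sequence, and comparisons of level between members, are uncertain, and the part of shared sequence in the levels was not tested.

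**Figure D2:**
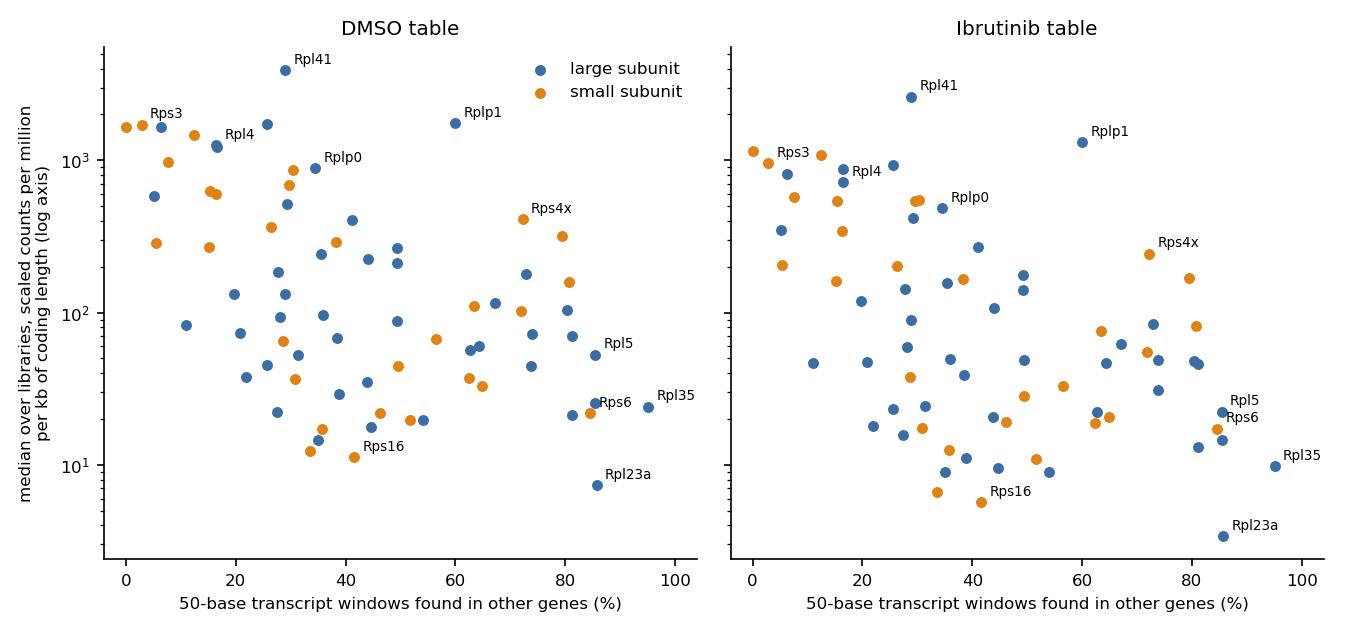
The plot of level against shared sequence sets each member's median CPM per kb of coding length (log axis) against the percent of its 50-base windows found in other annotated genes, 1 point per gene and 1 panel per table. The 14 members with at most 20% of windows shared lie at 83.3 CPM per kb or above in DMSO, while the 21 members above 60% have a median of 60.2.

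Rps27, a zinc-binding protein of the small subunit, has a copy of its sequence among the listed genes. It stood at 22.0 CPM per kb in DMSO and 19.1 in ibrutinib, while Rps27rt (ENSMUSG00000050621, chr9:114982366-114982739 on GRCm38), a retrogene copy with the same coding length of 252 bases that the naming rule does not take, stood at 1938 and 1713. They shared 296 windows of 50 bases, 46.2% of the 641 of Rps27 and 91.1% of the 325 of Rps27rt. Rps27 measured 2.9, 4.9 and 4.4 CPM in Eμ-TCL1 replicates 2, 3 and 4 and 11.6, 5.7, 9.3, 5.4 and 10.5 CPM in Eμ-TCL1;p53R172H/+ replicates 1 to 5 in DMSO. Rps27rt measured 136, 431 and 387 CPM and 545, 628, 631, 298 and 687 CPM in the same libraries, so the copy took nearly all counts of the pair in every one of them. Of the ribosomal protein genes with other kinds of names, Gnb2l1 (Rack1, a small-subunit scaffold) stood at 1713 CPM per kb in DMSO, Rpsa at 427, Rps3a1 at 259 and Fau (Rps30) at 19.7.

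From library to library the members moved both together and apart. On the log2(CPM) scale the SD of the members' geometric mean over libraries was 0.49 in DMSO and 0.34 in ibrutinib. Relative to that mean, the median member had an SD of 0.33 in DMSO and 0.28 in ibrutinib. Without the myeloid-rich libraries the SD of the mean was 0.24 in DMSO and 0.27 in ibrutinib and the relative SD 0.34 and 0.26, so the larger movement in common in DMSO came with that library. The lowest relative SD was 0.15 in DMSO and 0.07 in ibrutinib, the latter that of Rpl19. Rpl34 departed most in DMSO (0.68) and Rpl23a in ibrutinib (1.11). In DMSO 9 members, and in ibrutinib 23, had a relative SD above that of the mean, and 54 and 32 did without the myeloid-rich libraries. Highest over lowest library, the median member spanned 3.54-fold in DMSO, from 2.01-fold to 9.84-fold for Rpl10a, and 2.31-fold in ibrutinib, from 1.45-fold to 19.6-fold for Rpl23a. The median span was 2.07-fold and 1.93-fold without those libraries.

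Several of the widest spans came from 1 library. Rpl23a measured 1.1, 0.5 and 9.8 CPM in Eμ-TCL1 replicates 1, 3 and 4 in ibrutinib and 2.1, 1.6, 1.3 and 2 CPM in the other genotype, so that replicate 4 alone stood high. Rps29, a zinc-binding protein of the small subunit, measured 7.8, 1.2 and 1.3 against 2.1, 2.1, 2.8 and 2.9 CPM in the same table, with the high value in the myeloid-rich Eμ-TCL1 library. Rps6, the substrate of S6 kinase, measured 27.6, 15.9, 15.4 and 11.4 CPM in Eμ-TCL1;p53R172H/+ in ibrutinib, with the high value in replicate 1, and 11.3, 6.9 and 12.9 CPM in Eμ-TCL1. All 3 share 50-base windows with other genes (85.7, 35.8 and 84.6% of windows).

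**Figure D3:**
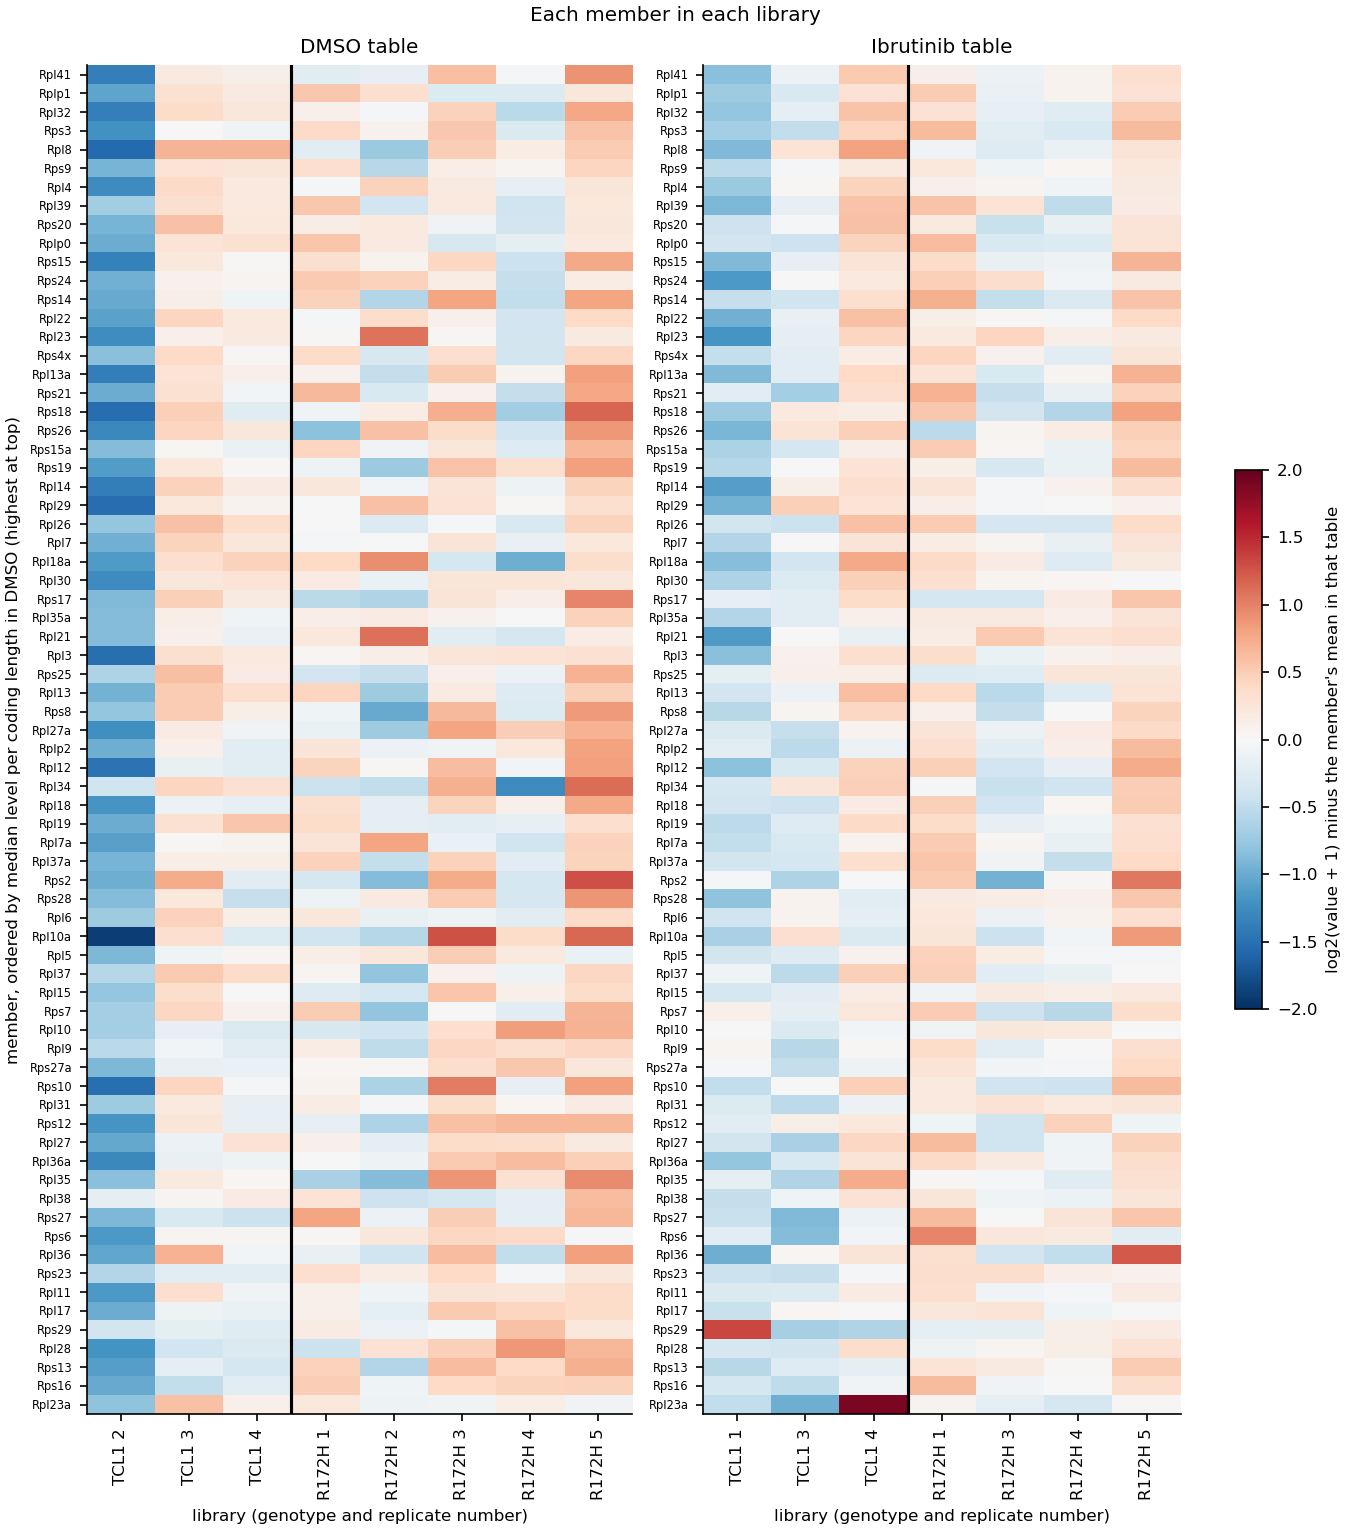
The heat map shows log2(CPM + 1) of 72 of the 74 members in each of the 15 libraries relative to the member's mean over its own table, with members ordered by level per coding length in DMSO and libraries by group. The column of Eμ-TCL1 replicate 2 in DMSO is the lowest of its table in 66 of the 72.

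Genotype was first compared in vehicle, the question being whether a mutant p53 allele went with another expression of these genes in leukemic cells. With limma on log2(CPM + 1), fitted over all genes and with Benjamini-Hochberg adjustment over all of them, 0 of the 74 members passed an adjusted p of 0.05, where 2 of 16470 genes did (0.0121%). Changes are given as Eμ-TCL1;p53R172H/+ minus Eμ-TCL1 on the log2(CPM + 1) scale, which understates the change of low genes. The estimate was above 0 for 69 members and below for 5 (53.3% of all genes were above), the median change was 0.44 against 0.04 over all genes, and the range was -0.18 to 0.996. At an unadjusted p under 0.05, 6 members were higher (8.11%; 3.52% of all genes) and 0 lower (4.65% of all genes). All Eμ-TCL1;p53R172H/+ libraries lay above all Eμ-TCL1 libraries for 6 members (8.11%; 3.52% of all genes), and below for 0 (2.93% of all genes). Without the myeloid-rich Eμ-TCL1 library, the median change fell to 0.04 with 42 members above 0 and 32 below (0.03 over all genes), 1 member was higher at an unadjusted p under 0.05 (3.02% of all genes) and 0 lower (5.8% of all genes), and 0 members were among the 61 genes then called (0.37%). In this fit the higher median over the list rested on that library. Without the libraries poor in B-cell transcripts (Eμ-TCL1;p53R172H/+ replicates 1 and 2), and with the myeloid-rich library kept, the median was 0.51. Of the members, 71 were then above 0, and 14 were higher at an unadjusted p under 0.05, where 1074 of the 16470 genes were. With sample quality weights, which let limma count divergent libraries less, the median was 0.22, with 53 members above 0, and 803 genes were called (4.88%), 0 of them members. Where a change is followed by a second value after "or", the second is the change without the myeloid-rich Eμ-TCL1 library.

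In the stalk, which recruits the elongation factors, Rplp0 measured 373, 898 and 918 CPM in Eμ-TCL1 replicates 2, 3 and 4 and 1090.1, 840.2, 599.5, 662 and 854 CPM in Eμ-TCL1;p53R172H/+ replicates 1 to 5. The groups overlapped, with the myeloid-rich library lowest and the other Eμ-TCL1 libraries above 4 of the 5 libraries of the other genotype. Rplp0 served the study as the reference gene for PCR. The means were 729.7 ± 309 (SD, n = 3) and 809 ± 192 (SD, n = 5) CPM. The change was 0.23 ± 0.39 (SE; adjusted p = 0.846), or -0.20 without the myeloid-rich library. Rplp1 measured 252, 646 and 592 against 764, 665, 434, 433 and 613 CPM and Rplp2 15.8, 34.4 and 27.4 against 38.5, 29.3, 30.5, 37.3 and 56.5 CPM, and both sets overlapped. Their changes were 0.30 ± 0.38 (SE), or -0.13, and 0.58 ± 0.32, or 0.28.

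Of the 45 large-subunit members, 41 had an estimate above 0 in DMSO (median 0.41, and 0.00 with 23 above 0 without the myeloid-rich library). Rpl12, which sits at the base of the stalk (chr2:32961559-32965345), measured 15.1, 39.5 and 37.8 CPM in Eμ-TCL1 and 60.1, 44.6, 68.2, 42.5 and 78.6 CPM in Eμ-TCL1;p53R172H/+. Every library of the second genotype lay above the first, although replicate 4 exceeded the highest Eμ-TCL1 library by little. The means were 30.8 ± 13.6 (SD, n = 3) and 58.8 ± 15.4 (SD, n = 5) CPM. The change was 0.99 ± 0.36 (SE; adjusted p = 0.558), or 0.55 without the myeloid-rich library. Rpl28 had the largest change of all members: it measured 2, 4.3 and 4.6 against 4.1, 7.4, 8.6, 11.5 and 9.9 CPM, with an overlap at the lowest library of the second genotype, and changed by 0.996 ± 0.39 (adjusted p = 0.568), or 0.71 without the myeloid-rich library. Rpl10a, which forms the flexible arm where spent tRNA leaves, measured 8.9, 45.2 and 29.1 against 26.8, 23.5, 87.6, 46.1 and 79.7 CPM, which is a wide spread in both groups, and its change was 0.97 ± 0.61 (adjusted p = 0.645), or 0.33. Rpl18 differed by 0.77 ± 0.32 (adjusted p = 0.595), or 0.42.

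Rpl5 and Rpl11, the Mdm2-binding pair, overlapped between genotypes. Rpl5 measured 23.2, 41.6 and 45.9 CPM in Eμ-TCL1 and 48.3, 51.7, 62.0, 50.6 and 40.2 CPM in Eμ-TCL1;p53R172H/+ (change 0.49 ± 0.27, adjusted p = 0.645), and 85.4% of its windows recur in other genes. Rpl11 measured 3.6, 11.8 and 8.7 against 9.9, 8.6, 11.2, 11.0 and 12.1 CPM (change 0.47 ± 0.36, adjusted p = 0.662). In both, the myeloid-rich library was the lowest, and without it the changes were 0.19 and 0.04. Rpl26, which binds the p53 mRNA, measured 57.4, 149 and 126 against 99.8, 81.1, 95.7, 80.0 and 135 CPM and was among the 5 members with a change below 0 (-0.09 ± 0.34, or -0.50). Rpl22, known as a tumor suppressor in T-cell leukemia, differed by 0.23 ± 0.36, or -0.22, and Rpl3, close to the catalytic centre, by 0.52 ± 0.40, or -0.07. Rpl41, the member with the highest level per kb of coding length, measured 203, 593 and 566 against 449.5, 465, 792, 509.6 and 975 CPM, a change of 0.57 ± 0.45, or 0.07. Rpl34 and Rpl37 had the lowest changes, -0.18 ± 0.54, or -0.44, and -0.17 ± 0.37, or -0.51.

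Among the 29 small-subunit members, 28 had an estimate above 0 in DMSO (median 0.51, and 0.11 with 19 above 0 without the myeloid-rich library). Rps16, whose tail reaches the peptidyl tRNA, had the lowest p of the members. It measured 1.6, 2.7 and 3.5 CPM in Eμ-TCL1 replicates 2, 3 and 4 and 6.3, 3.9, 5.9, 6.1 and 6.2 CPM in Eμ-TCL1;p53R172H/+ replicates 1 to 5. The groups did not overlap, with replicate 2 the lowest of each, and the means were 2.6 ± 0.954 (SD, n = 3) and 5.68 ± 1.01 (SD, n = 5) CPM. The change was 0.91 ± 0.30 (SE; adjusted p = 0.524), or 0.70 without the myeloid-rich library. Rps27, with the values given above, did not overlap either, and its change was 0.87 ± 0.34 (adjusted p = 0.58), or 0.70 without that library. Both lie at a few CPM, and 41.6 and 46.2% of their windows recur elsewhere.

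Rps27a, made as a fusion with ubiquitin, measured 8.6, 15.2 and 15.4 against 17.4, 17.2, 21.8, 25.1 and 19.9 CPM without overlap and differed by 0.63 ± 0.27 (adjusted p = 0.608), or 0.37. Rps23, at the decoding centre, and Rps29 were the remaining members without overlap. Rps23 measured 5, 6.7 and 6.7 against 10.4, 9, 10.9, 7.8 and 9.6 CPM and Rps29 2.2, 2.6 and 2.5 against 3.6, 2.8, 3, 5.2 and 3.8 CPM. In both genes the highest Eμ-TCL1 library and the lowest of the other genotype were close. Rps6 differed by 0.55 ± 0.33, or 0.15. Rps14 and Rps19, which are known from inherited or acquired anemias, differed by 0.51 ± 0.44, or 0.17, and 0.47 ± 0.43, or 0.06. Rps25 was the small-subunit member with a change below 0 (-0.08 ± 0.35, or -0.41).

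Several members of high level overlapped between genotypes in DMSO. Rpl4, which lines the exit tunnel, measured 584, 1826 and 1592 CPM in Eμ-TCL1 and 1351, 1911, 1587, 1247 and 1658 CPM in Eμ-TCL1;p53R172H/+, a change of 0.36 ± 0.45 (SE), or -0.15 without the myeloid-rich library. Rps3 measured 526, 1204 and 1153 against 1586, 1296, 1759, 1000.3 and 1815 CPM (0.69 ± 0.41, or 0.31). Rpl32 measured 239, 800.2 and 728 against 665, 612, 859, 426 and 1059.5 CPM (0.41 ± 0.48, or -0.14). In all 3 the myeloid-rich library was the lowest by far and the other Eμ-TCL1 libraries lay among those of the second genotype. The X-linked Rps4x, of the small subunit, measured 157, 372 and 286 against 367, 225, 358, 219.6 and 375 CPM (0.23 ± 0.35, or -0.12), and Rpl10 20.5, 29.7 and 27.3 against 26.8, 25.1, 42.6, 60.4 and 54.7 CPM (0.61 ± 0.34, or 0.46). Rpl39, of the exit tunnel, measured 100.1, 203 and 186 against 235, 124, 186, 123 and 188 CPM (0.09 ± 0.33, or -0.23), and Rpl36a 2.8, 7.4 and 7.7 against 8.4, 7.7, 12.4, 13.3 and 11.9 CPM (0.82 ± 0.37, or 0.43). These 4 overlapped as well.

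**Figure D4:**
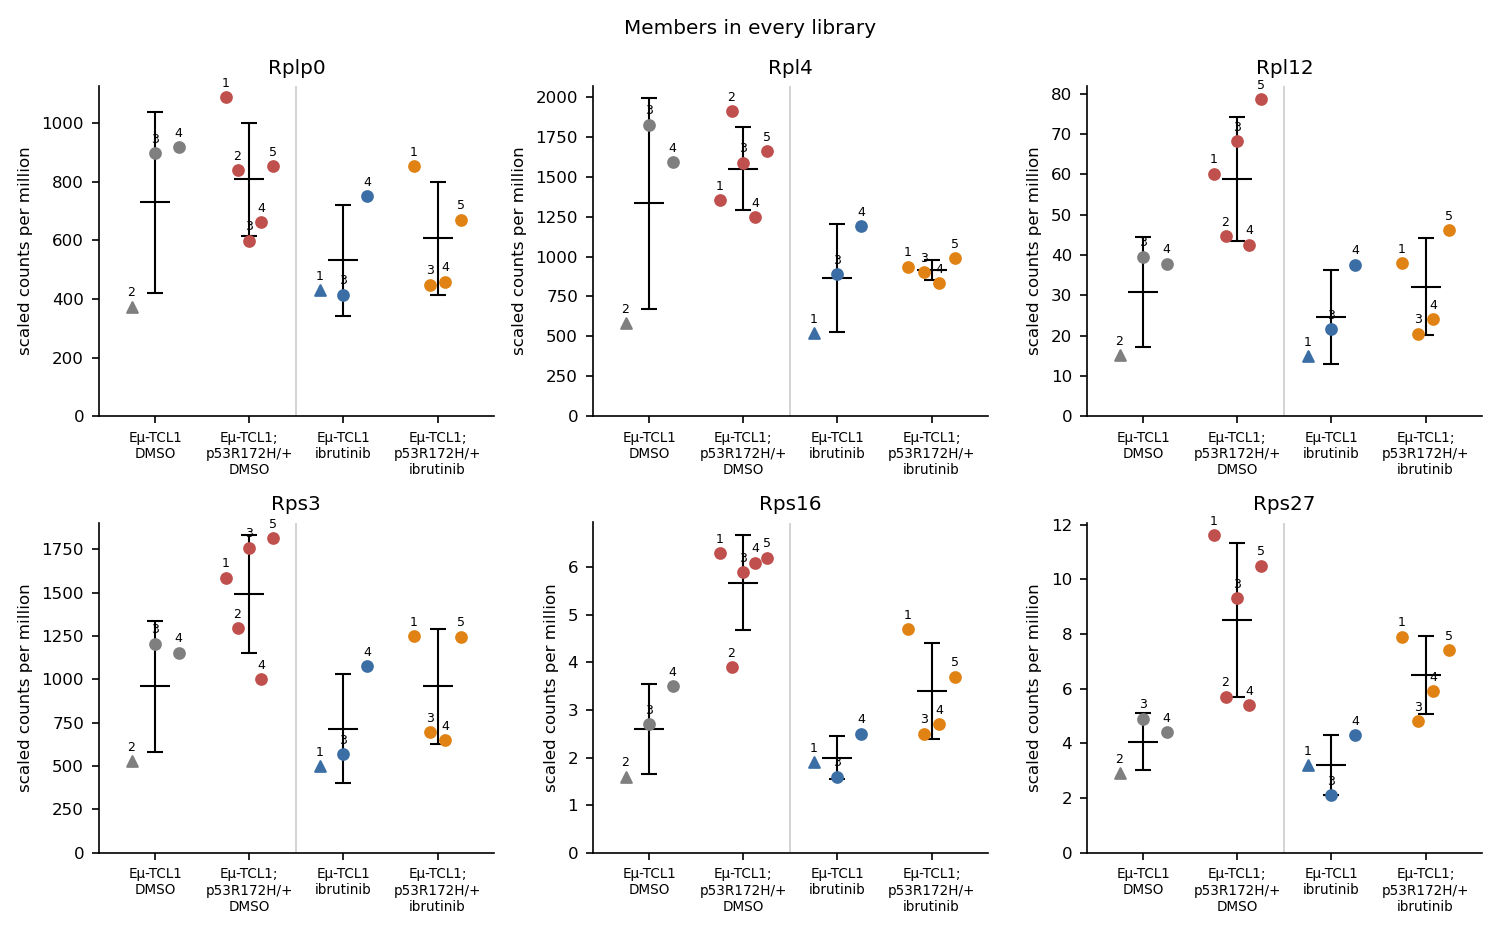
The plot of 6 members gives the CPM of Rplp0, Rpl4, Rpl12, Rps3, Rps16 and Rps27 in each of the 15 libraries by group, with triangles for the myeloid-rich Eμ-TCL1 libraries and bars for the mean ± SD. For Rpl12, Rps16 and Rps27 all 5 Eμ-TCL1;p53R172H/+ libraries in DMSO lie above the 3 Eμ-TCL1 libraries, while Rplp0 and Rpl4 overlap.

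The same comparison in ibrutinib asked whether the genotypes differed under BTK inhibition. Again 0 of 74 members passed an adjusted p of 0.05, and neither did any of the 16428 genes (0%), of which 934 were higher and 1039 lower at an unadjusted p under 0.05 in the limma fit. The estimate was above 0 for 65 members and below for 9 (45.6% of all genes were above), the median change was 0.28 against -0.05 over all genes, and the range was -0.25 to 0.85. At an unadjusted p under 0.05, 5 members were higher (6.76%; 5.69% of all genes) and 0 lower (6.32% of all genes). The genotypes did not overlap for 6 members that were higher (8.11%; 6.68% of all genes) and for 0 that were lower (5.97% of all genes). Without the myeloid-rich Eμ-TCL1 library the median change was 0.10, with 47 members above 0 and 27 below, 4 members higher (6.03% of all genes) and 1 lower (9.87% of all genes) at an unadjusted p under 0.05, and 0 members among the 24 genes then called (0.146%). The large subunit had a median change of 0.25 (41 of 45 above 0) and the small subunit of 0.33 (24 of 29), which without that library were 0.09 and 0.16. With sample quality weights the median of the members was 0.01. With all libraries it was 0.42 with quantile normalization and 0.40 with columns scaled to their sum without mitochondrially encoded transcripts. At an unadjusted p under 0.05, 11 and 13 members were then higher, where 1372 and 1282 of the 16428 genes were. With columns scaled to their full sum it was 0.28, and 0 members were higher at that p, where 369 genes were.

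Rps27 had the largest change and the lowest p in ibrutinib. It measured 3.2, 2.1 and 4.3 CPM in Eμ-TCL1 replicates 1, 3 and 4 and 7.9, 4.8, 5.9 and 7.4 CPM in Eμ-TCL1;p53R172H/+ replicates 1, 3, 4 and 5, without overlap. The change was 0.85 ± 0.28 (SE; adjusted p = 0.337) and 0.87 without the myeloid-rich library. Its copy Rps27rt measured 117, 264 and 432 against 477, 529.6, 398 and 529 CPM, the only overlap being that of replicate 4 in both groups, with a change of 1.01 ± 0.42 (SE; adjusted p = 0.403), or 0.51. Rps27 and Rps23 were the members without overlap in both tables, and Rps27 alone was under an unadjusted p of 0.05 in both. The share of all genes that recur in this way was not counted. Most same-numbered libraries of a genotype deviated together across the tables (r from 0.747 to 0.835, and -0.109 for Eμ-TCL1;p53R172H/+ replicate 3). Recurrence in both tables is therefore not independent evidence. Rps23 measured 3, 2.9 and 4.3 against 5.9, 5.9, 4.9 and 4.7 CPM in ibrutinib and differed by 0.54 ± 0.23 (adjusted p = 0.411), or 0.48.

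In the large subunit Rpl21 measured 23.2, 52.2 and 46.6 against 57.5, 74.9, 63.2 and 65.8 CPM and differed by 0.74 ± 0.28 (adjusted p = 0.375), or 0.39 without the myeloid-rich library. Rpl31, at the exit tunnel, measured 5.5, 4.5 and 6.3 against 8, 8.6, 8 and 8.3 CPM and differed by 0.53 ± 0.20 (adjusted p = 0.373), or 0.54 without that library. Neither overlapped between genotypes. Rps13, in the small subunit, was likewise separate at 1.7, 2.3 and 2.5 against 3.8, 3.5, 3 and 4.6 CPM, a change of 0.57 ± 0.23 (adjusted p = 0.387), or 0.47. Rps28 was also without overlap, at 3.7, 7.6 and 6.1 against 8.3, 8.1, 7.8 and 11.0 CPM. Rps6, with the values given above, was among the 4 members with the largest changes, at 0.68 ± 0.34, or 0.76, but overlapped.

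In the stalk Rplp0 measured 429.6, 415 and 751 against 853, 449, 459 and 670.5 CPM and overlapped (change 0.20 ± 0.34, or 0.07, adjusted p = 0.816). Rplp1 and Rplp2 differed by 0.42 ± 0.29, or 0.19, and 0.49 ± 0.24, or 0.53. The Mdm2-binding Rpl5 and Rpl11 differed by 0.32 ± 0.20, or 0.22, and 0.23 ± 0.23, or 0.15, with adjusted p = 0.553 and 0.669. Estimates below 0 were headed by Rpl23a at -0.25 ± 0.64, or -0.56, and it was 0.62 without Eμ-TCL1 replicate 4 with its high value, then Rpl34 at -0.22 ± 0.31, or -0.45, Rpl8 at -0.11 ± 0.41, or -0.58, and Rps20 at -0.08 ± 0.29, or -0.32. None of these 4 was under an unadjusted p of 0.05. Rpl10, which joins the large subunit late, Rpl36a, Rpl39 and Rps4x are X-linked, and these 4 members had a median change of 0.42 in DMSO and 0.30 in ibrutinib, or 0.15 and 0.20 without the myeloid-rich libraries. With at least 5 pyrimidines from a C at the annotated start, as in the sequences of Rps24 and Rpl32 above, the 22 members had a median change of 0.43 in DMSO and 0.26 in ibrutinib, against 0.44 and 0.29 for the other 52. Without the myeloid-rich libraries these were 0.02 and 0.07 against 0.06 and 0.10.

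**Figure D5:**
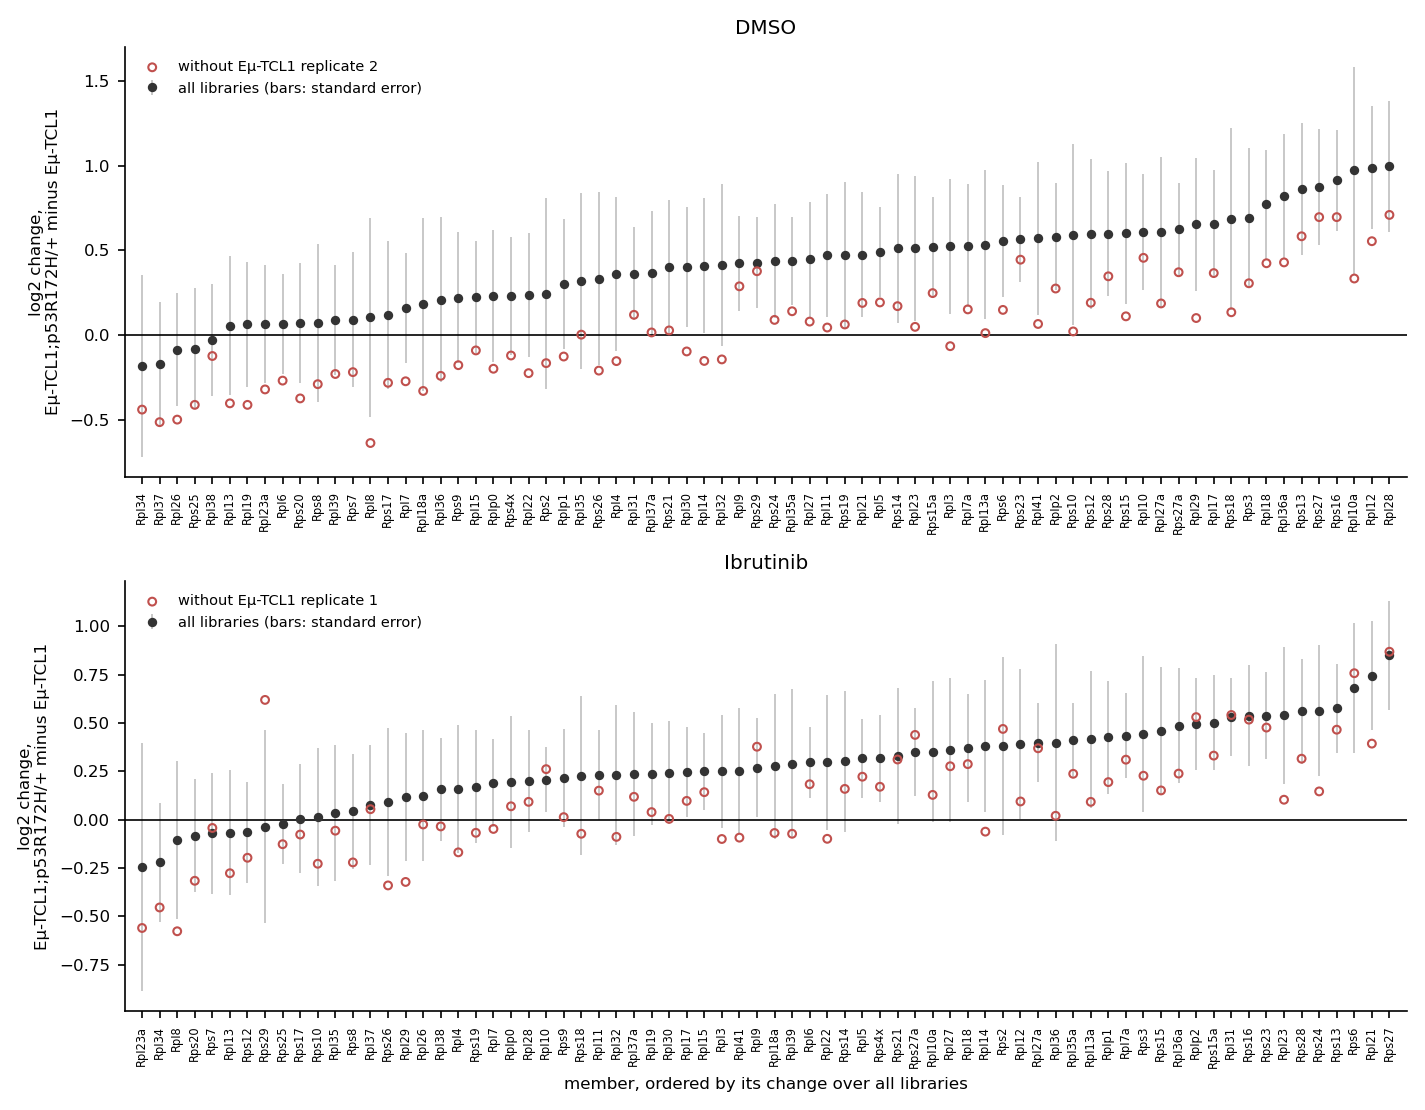
The plot of change by member gives the log2(CPM + 1) difference between genotypes (Eμ-TCL1;p53R172H/+ minus Eμ-TCL1) with its SE for 72 of the 74 members in DMSO and in ibrutinib, with all libraries and without the myeloid-rich Eμ-TCL1 libraries. Of the 72 members, 67 and 63 lie above 0 with all libraries, and 41 and 45 without those libraries.

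Whether the genotype difference itself changed with ibrutinib was tested as the interaction over all 15 libraries, in which a factor common to a table cancels. It is given as the difference in ibrutinib minus that in DMSO. No member passed the adjusted threshold (0 of 74), nor any of the 15869 genes (0%), and 0 members were under an unadjusted p of 0.05, against 0.523% of all genes (83 genes). This limma fit did not pair the libraries. With same-numbered libraries of a genotype as a block, 802 of the 15869 genes and 0 members were under that p, and 0 genes passed the adjusted threshold. That is about the share of genes that chance alone puts under an unadjusted p of 0.05, while the unpaired fit had far fewer. The unpaired fit was thus conservative, and its 0 members are no evidence that the interaction was absent. In the unpaired fit the interaction was above 0 for 20 members and below for 54 (40.9% of all genes were above), with a median of -0.12 against -0.07 over all genes. The lowest values were those of Rpl28 (-0.80 ± 0.46, or -0.62), Rps12 (-0.66 ± 0.53, or -0.39), Rpl10a (-0.62 ± 0.78, or -0.21) and Rpl12 (-0.60 ± 0.55, or -0.46), and the highest those of Rpl21 (0.27 ± 0.49, or 0.20), Rpl37 (0.25 ± 0.48, or 0.57), Rpl6 (0.23 ± 0.36, or 0.45) and Rpl26 (0.21 ± 0.50, or 0.47), all with an adjusted p of 1, the second value being without the myeloid-rich libraries. Rpl12, for one, measured 14.9, 21.6 and 37.6 against 38.0, 20.5, 24.0 and 46.1 CPM in ibrutinib, where its genotypes overlapped, unlike in DMSO. Without the myeloid-rich libraries the median interaction of the members was 0.09. It was also above 0 with quantile normalization (0.04) and with columns scaled to their sum without mitochondrially encoded transcripts (0.12), so its direction depended on the libraries and on the scaling.

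Ibrutinib was not tested against DMSO, because the tables were scaled separately, but the members' share of a library has no such factor and could be set side by side. With mitochondrially encoded transcripts left out, it was 1.74% in DMSO and 0.986% in ibrutinib for Eμ-TCL1 replicate 3 and 1.76 and 1.60% for replicate 4. For Eμ-TCL1;p53R172H/+ it was 1.59 and 1.58% in replicate 1, 1.80 and 1.27% in replicate 3, 1.44 and 1.20% in replicate 4 and 1.99 and 1.5% in replicate 5. The share was lower in ibrutinib for all 6 numbers present in both tables of a genotype, at 0.567 to 0.994 times its value in DMSO, and this difference was not tested. For replicate 3 of Eμ-TCL1;p53R172H/+ the DMSO and ibrutinib libraries did not deviate together from their group means (r = -0.109 over 10627 genes, against 0.747 to 0.835 for the other 5 such pairs), so whether its number marks the same cells cannot be told.

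Other genes of the pathway had no call at an adjusted p of 0.05 in either genotype test (limma). With sample quality weights, 4 biogenesis, 3 mTOR and Myc and 2 mitochondrial ribosomal protein genes were called in DMSO, where 4.88% of all genes were. Among 35 ribosome biogenesis genes, which process ribosomal RNA and assemble the subunits, the estimate was above 0 for all 35 in DMSO (median change 0.72) and 14 were higher and 0 lower at an unadjusted p under 0.05, where 3.52 and 4.65% of all genes were. In ibrutinib 32 were above 0 (median 0.36), with 11 higher and 0 lower, where 5.69 and 6.32% of all genes were. Counts with all libraries in the lists that follow are to be read against these shares. Counts without the myeloid-rich libraries are to be read against 3.02 and 5.8% in DMSO and 6.03 and 9.87% in ibrutinib. Without those libraries, 29 of the 35 biogenesis genes were above 0 in DMSO (median 0.31, 2 higher and 0 lower) and 27 in ibrutinib (median 0.38, 10 higher and 0 lower). The interaction was below 0 for 31 of the 35 (median -0.36), but for 18 (median -0.01) without those libraries. Nop14, a small-subunit assembly factor, measured 16.2, 30.9 and 35.7 CPM in Eμ-TCL1 and 45.7, 79.0, 55.8, 75.2 and 54.3 CPM in Eμ-TCL1;p53R172H/+ in DMSO, a change of 1.18 ± 0.31 (SE; adjusted p = 0.395), or 0.85. Gnl3 (nucleostemin), a nucleolar GTPase, measured 16.8, 14.1 and 17.7 against 34.6, 27.5, 23.1 and 33.4 CPM in ibrutinib and differed by 0.82 ± 0.20 (adjusted p = 0.235), or 0.85. Fbl (fibrillarin), Ltv1, Gnl3 and Ebna1bp2 in DMSO and Rrp9, Taf1b, Ltv1 and Ubtf in ibrutinib were the others of lowest p, with changes of 0.74 (or 0.68), 1.06 (or 0.70), 1.06 (or 0.63) and 0.75 (or 0.44) and of 0.84 (or 0.85), 0.57 (or 0.53), 0.62 (or 0.77) and 0.49 (or 0.45).

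Of 19 genes of mTOR and Myc control, 4 were higher and 1 lower at an unadjusted p under 0.05 in DMSO (median change 0.13), and 1 higher and 4 lower in ibrutinib (median -0.22). Without the myeloid-rich libraries these were 4 and 1 (median 0.23) and 1 and 2 (median 0.04). Myc measured 17.2, 73.4 and 77.9 CPM in Eμ-TCL1 replicates 2, 3 and 4 and 92.2, 162, 165, 253 and 207 CPM in Eμ-TCL1;p53R172H/+ replicates 1 to 5 in DMSO. All libraries of the second genotype lay above the first. The change was 1.82 ± 0.53 (SE; adjusted p = 0.473), or 1.13 without the myeloid-rich library. Mnt, a repressor that competes with Myc, differed by 0.70 in DMSO, or 0.77, and 0.59 in ibrutinib, or 0.61. Deptor, an inhibitor of mTOR, differed by -1.56 ± 0.62 and Mxd4, another Myc antagonist, by -0.87 ± 0.26 in ibrutinib (adjusted p = 0.392 and 0.31), or -0.80 and -1.15. Larp1, the protein that binds TOP tracts, differed by 0.79 (or 0.69), Eif4ebp2 by 0.91 (or 1.06) and Deptor by -1.54 (or -0.71) in DMSO, and Eif4ebp1 by -0.98 (or -1.08) and Tsc2 by -0.55 (or -0.53) in ibrutinib.

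Translation factors and other mRNAs with a TOP tract (22 genes) had a median change of 0.29 in DMSO (0 higher and 1 lower at an unadjusted p under 0.05) and 0.14 in ibrutinib (1 higher and 0 lower). These medians were -0.25 and -0.13 without the myeloid-rich libraries. Tpt1, a growth-linked TOP mRNA, differed by 1.12 ± 0.28 (SE) in ibrutinib (adjusted p = 0.25), or 1.31, and Vim (vimentin) by -0.97 ± 0.33 in DMSO (adjusted p = 0.543), or -0.59. The 76 mitochondrial ribosomal protein genes, which serve a separate ribosome, had a median change of 0.30 in DMSO (66 above 0, 4 higher and 0 lower at an unadjusted p under 0.05) and 0.07 in ibrutinib (46 above 0, 3 higher and 2 lower), or -0.02 and 0.02 without the myeloid-rich libraries. With all columns divided by the geometric mean of the members, the 76 had medians of -0.11 and -0.21 and the 35 biogenesis genes of 0.30 and 0.06. The mitochondrial members of lowest p in DMSO were Mrps5 (0.88, or 0.56), Mrpl41 (0.84, or 0.60), Mrpl23 (0.94, or 0.72) and Mrps10 (0.79, or 0.48), and in ibrutinib Mrpl23 (0.83, or 0.78), Mrpl47 (0.89, or 0.63), Mrps6 (0.79, or 0.72), Mrpl45 (-0.96, or -1.36) and Mrpl44 (-0.58, or -0.69). The 12 cytosolic ribosomal protein genes with other names had medians of 0.27 and 0.22, or -0.01 and -0.02 without those libraries.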

How the data were processed

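RNA of 15 libraries was sequenced by the authors, 8 in the DMSO table and 7 in the ibrutinib table. According to the submitters' processing notes and the study's methods, the authors aligned reads with TopHat2 2.0.12 to GRCm38, used SAMtools 0.1.19, counted genes with HTSeq, filtered low genes and scaled with edgeR. The deposited signal values are CPM of the effective library size, with edgeR factors the authors set per table and values rounded to 0.1. Whole reads could not be recovered, so no count test was run, depth is unknown and intervals that need it are not given. Strandedness and the handling of reads matching several places are not given in the sources used here.

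Values were tested as log2(value + 1) with limma 3.58.1 (lmFit and eBayes with a trend, R 4.3.3), with no filter, Benjamini-Hochberg adjustment over all genes and a threshold of 0.05, as mutant minus Eμ-TCL1 within each table and as the interaction over both. The fitting script was tested on simulated data with changes far larger than those of the members. That test does not show that changes of the members' size would be found. Tables and figures used Python 3.11.15, pandas 2.3.3, numpy 2.4.6 and matplotlib 3.10.9. GENCODE M21 (GRCm38) supplied coordinates, coding lengths, first bases and windows of 50 bases. The members and lists were chosen with earlier results of these data known. Members were named if they were stalk proteins, p53-linked, X-linked or otherwise of known role, if they had the 4 largest changes in each direction or the 3 lowest p-values of a test, or the 3 highest or lowest levels per coding length, and of the other lists at most 5 genes by unadjusted p. A few genes that this rule names are not reported here. Other members were named after their values were seen, where the groups did not overlap or 1 library stood out. Alternatives covered the pseudocount (0.1 and 5), a mean of at least 5, the scaling, sample weights, a replicate block, each library left out and the libraries poor in B-cell transcripts. Leaving out the myeloid-rich Eμ-TCL1 libraries and scaling to the members were added after seeing the data.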

Additional observations from a re-analysis of the deposited data

Results flagged for a closer look

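Rpl21 measured 137.4 CPM in Eμ-TCL1;p53R172H/+ replicate 2 in DMSO, far above the other 4 libraries of its group (49.8 to 73.5 CPM). The gap to the next library was 0.729 of the group's range. Rps16 measured 3.9 CPM in the same library, below the other 4 (5.9 to 6.3 CPM), a gap of 0.833 of the range. This is 1 of the libraries with few B-cell and many T-cell transcripts (259 and 2459 CPM summed over 8 markers each), and the part of that in the values was not tested. Of 80 groups of 4 or 5 values examined, these 2 stood out, and chance alone marks about 1 in 20.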

How the results depend on the processing

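In all 3 tests 0 members were called under every alternative that was run. The median change of the members ranged from 0.04 to 0.67 in DMSO and from 0.10 to 0.50 in ibrutinib with each library left out in turn, the lowest values being those without the myeloid-rich library, and the median interaction from -0.384 (without Eμ-TCL1 replicate 3 in DMSO) to 0.285 (without Eμ-TCL1 replicate 2). Sample quality weights gave medians of 0.22 and 0.01, and called 803 genes in DMSO (2 without weights) and 28 in ibrutinib (0 without). The replicate block gave 0.35, 0.22 and 0.01, with 0 genes called in each test, and changed no call of a member. The numbers were not taken to pair the samples: same-numbered libraries of the 2 genotypes deviated with r from -0.191 to 0.282, and 1 of 6 same-numbered treatment pairs had r = -0.109. The rest of the treatment pairs had r from 0.747 to 0.835. In ibrutinib the block amounts to leaving out Eμ-TCL1;p53R172H/+ replicate 5, the number with no partner. Among changes of single members and shares of libraries, 664 values stayed the same and 31 reversed, and the cause was not tested. A change stayed the same if it kept its direction and side of the threshold. A share did so if it shifted by no more than the SD of its group. With sample quality weights, Rpl34 in DMSO became 0.051, Rplp0 -0.319 in DMSO and -0.143 in ibrutinib. Without the libraries poor in B-cell transcripts, Rpl34, Rpl37 and Rps25 in DMSO became 0.082, 0.029 and 0.179, and the interactions of Rpl26 and Rpl37 -0.013 and -0.101. Rplp0 in DMSO became -0.198 without the myeloid-rich library and -0.214 scaled to the members, and in ibrutinib -0.116 scaled to the members. In ibrutinib Rps20 became 0.088 with quantile normalization and 0.034 scaled to the column sum without mitochondrially encoded transcripts, which gave 0.01 for Rpl8. Leaving out each library, Rpl26 ranged from -0.498 to 0.181, Rpl34 from -0.479 to 0.115, Rpl37 from -0.513 to 0.037, Rplp0 from -0.198 to 0.45 and Rps25 from -0.411 to 0.193 in DMSO. In ibrutinib Rpl23a ranged from -0.802 to 0.622, Rpl8 from -0.577 to 0.26 and Rps20 from -0.316 to 0.189. The interactions ranged from -1.093 to 0.018 for Rpl10a, from -0.081 to 0.555 for Rpl21, from -0.058 to 0.621 for Rpl26 and from -0.02 to 0.565 for Rpl6. The members' share of the column sum moved with mitochondrially encoded transcripts left out, from 0.695 to 1.20% and from 0.842 to 1.5% in Eμ-TCL1;p53R172H/+ replicates 4 and 5 in ibrutinib. Values carry 1 decimal, so members of a few CPM are coarse.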
